A study of Mus musculus with 2 samples.

Results

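Tnfrsf9 encodes 4-1BB (CD137), a costimulatory receptor that T cells display for a limited time after their antigen receptor is engaged. The Tnfrsf9-positive cells described here were chosen by their measured Tnfrsf9 level, 10 or more CPM (read count divided by all of a cell's reads in genes, scaled to counts per megaread) in a single sorted cell. They made up 109 of 735 cells, 46 of 368 from control hosts and 63 of 367 from hosts with Il13ra1 deleted. Tnfrsf9 itself is therefore given only as a description, and no other gene entered the choice.

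The cells were CD4 T cells sorted from mouse spleen, with the OTII receptor for ovalbumin, 7 days after CAS (not explained in the labels) and a second priming. Host mice were C57BL/6 in the control group and IL13Ra1f/f, CD11cCre/+ in the other group, whose hosts are called deleted below. CD11c-Cre acts mainly in dendritic cells, so the deletion was in host cells and not in the transferred T cells, which were the same in both groups as far as the labels say. The study asked how the IL-13 signal bears on T follicular helper (TFH) cells, the helpers of the antibody response. Each group was 1 pooled sample, of 2 control mice or 3 deleted mice, sorted onto 4 plates of 92 cell wells. Ages are not given in the labels. The sort took viable CD4 cells with V beta 5.1/5.2 and named no donor marker, so host cells with that chain could be among them. Plates split the same mice and each held cells of 1 pool, so plate and pool cannot be told apart. All differences below are measurements of these libraries, with no replicate check and no p-value.

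4-1BB belongs to the tumour necrosis factor (TNF) receptor superfamily. On binding its ligand, the product of Tnfsf9, it recruits the adaptors TRAF1 and TRAF2 and turns on the canonical and alternative NF-kappaB pathways, which raise survival genes of the BCL2 family. In CD4 T cells it is known from recently stimulated conventional cells and from regulatory T (Treg) cells. Nfkb2, the precursor protein of the alternative pathway, and Nop16, a nucleolar protein of ribosome assembly, were given as markers of these cells beside Tnfrsf9.

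Promoters of the 3 marker genes are shown since Tnfrsf9 and Nfkb2 are known targets of NF-kappaB. Each sequence is 300 bases, from 250 before to 50 after an annotated start, from RefSeq on GRCm38.p6 (the assembly also called mm10), 5′ to 3′ on the gene's strand. Capitals mark matches to the NF-kappaB consensus or to the AP-1 motif TGANTCA, searched on both strands. Tnfrsf9 has 2 annotated starts on chromosome 4. The upstream window held no match, and the downstream one held 2 NF-kappaB matches that overlap, 43 and 42 bases before the start, and 1 AP-1 match 15 bases before it. The first of 3 Nfkb2 windows, on chromosome 19, held 3 NF-kappaB matches, of which 2 overlap. The second held 2 NF-kappaB matches and 1 AP-1 match 210 bases before the start, and the third 1 NF-kappaB match, and these are not printed. Nop16, on chromosome 13, held none. Ctdnep1 and Ppp2r5d are the other named genes called higher below that held a match.
Tnfrsf9 upstream start, chr4:150919905-150920204, plus strand: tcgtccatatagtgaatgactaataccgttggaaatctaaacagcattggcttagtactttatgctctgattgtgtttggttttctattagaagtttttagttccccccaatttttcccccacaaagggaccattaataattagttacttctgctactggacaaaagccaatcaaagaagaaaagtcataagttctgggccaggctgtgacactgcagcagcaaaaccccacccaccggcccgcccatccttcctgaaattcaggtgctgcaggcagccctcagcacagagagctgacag
Tnfrsf9 downstream start, chr4:150927749-150928048, plus strand: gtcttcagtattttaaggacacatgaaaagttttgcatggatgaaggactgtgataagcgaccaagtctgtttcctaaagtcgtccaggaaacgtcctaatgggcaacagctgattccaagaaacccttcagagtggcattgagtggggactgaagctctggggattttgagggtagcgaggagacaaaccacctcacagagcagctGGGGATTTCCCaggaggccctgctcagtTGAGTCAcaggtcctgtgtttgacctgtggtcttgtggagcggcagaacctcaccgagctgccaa
Nfkb2 first start, chr19:46304487-46304786, plus strand: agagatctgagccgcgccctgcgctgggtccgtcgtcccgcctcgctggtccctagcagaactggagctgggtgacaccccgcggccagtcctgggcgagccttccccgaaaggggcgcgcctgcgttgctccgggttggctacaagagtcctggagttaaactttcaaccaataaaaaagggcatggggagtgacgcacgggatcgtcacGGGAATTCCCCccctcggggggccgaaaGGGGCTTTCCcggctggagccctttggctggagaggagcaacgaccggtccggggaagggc
Nop16, chr13:54590025-54590324, minus strand: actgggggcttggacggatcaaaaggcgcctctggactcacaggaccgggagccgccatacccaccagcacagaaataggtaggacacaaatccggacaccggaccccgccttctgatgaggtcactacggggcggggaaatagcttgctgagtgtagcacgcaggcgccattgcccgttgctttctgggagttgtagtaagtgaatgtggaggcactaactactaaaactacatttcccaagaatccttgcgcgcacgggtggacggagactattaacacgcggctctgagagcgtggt
Ctdnep1, chr11:69980918-69981217, plus strand: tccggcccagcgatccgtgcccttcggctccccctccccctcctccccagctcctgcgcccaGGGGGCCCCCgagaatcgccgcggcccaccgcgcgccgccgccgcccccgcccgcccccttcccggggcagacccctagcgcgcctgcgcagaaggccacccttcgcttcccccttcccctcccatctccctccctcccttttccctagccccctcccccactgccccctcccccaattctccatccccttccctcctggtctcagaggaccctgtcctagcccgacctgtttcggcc
Ppp2r5d first window, chr17:46704953-46705252, minus strand: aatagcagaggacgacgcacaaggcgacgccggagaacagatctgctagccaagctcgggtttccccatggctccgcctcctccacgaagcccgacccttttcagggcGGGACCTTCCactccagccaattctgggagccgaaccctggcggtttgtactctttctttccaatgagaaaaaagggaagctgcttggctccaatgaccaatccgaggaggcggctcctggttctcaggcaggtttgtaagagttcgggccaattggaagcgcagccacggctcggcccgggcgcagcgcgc

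Of all 32851 windows in the RefSeq table, 8.46% held an NF-kappaB match and 7.81% an AP-1 match. Counted by gene over the 6369 measured genes in the table, the shares were 12.01% and 5.42%. Of the genes called higher in positive cells, 20 are in the table. Of these, 3 (Tnfrsf9, Ctdnep1 and Ppp2r5d) held an NF-kappaB match and 1 (Tnfrsf9) an AP-1 match. These shares of 15% and 5% lie near those of measured genes. Tnfrsf9 is among the genes called higher because its level chose the cells. Without Tnfrsf9, only Ctdnep1 and Ppp2r5d held an NF-kappaB match, and no gene held an AP-1 match. A match says only that these letters stand in the window.

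Tnfrsf9 levels separated most positive cells from the negative ones, with few cells next to the threshold. Positive cells ranged from 10.005 to 5730.2 CPM, with medians of 787 CPM (control) and 904 CPM (deleted). Of the 109 cells, 6 lay between 10 and 50 CPM and 16 had 2000 CPM or more. Below the threshold, 51 negative cells lay between 2 and 10 CPM, 18 from control and 33 from deleted hosts. The cells next to the threshold had 9.52, 6.75 and 6.21 CPM below it and 10.005, 10.6, 14.1 and 37.0 CPM above it. The cell at 14.1 CPM held 1 Tnfrsf9 read in a shallow library of 71129 reads, so its place among the positive cells rests on that read.

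Negative cells were not all without Tnfrsf9 reads. Of 626 negative cells, 400 had at least 1 read, which was 56.8% in control hosts and 71.4% in deleted hosts, and 86.1% had 2 reads or fewer. Of 9 wells without a cell, 6 also held Tnfrsf9 reads, at most 2 in a well, so a read or so is at the level of empty wells. Summed over cells, Tnfrsf9 was at 1016 CPM in positive and 0.620 CPM in negative cells of control hosts. In deleted hosts it was at 1179.7 and 1.01 CPM. The exact Poisson 95% interval of the control value, 1009 to 1024 CPM, is narrow because it covers the counting of reads alone and neither the number of cells nor PCR copies.

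**Figure D1:**
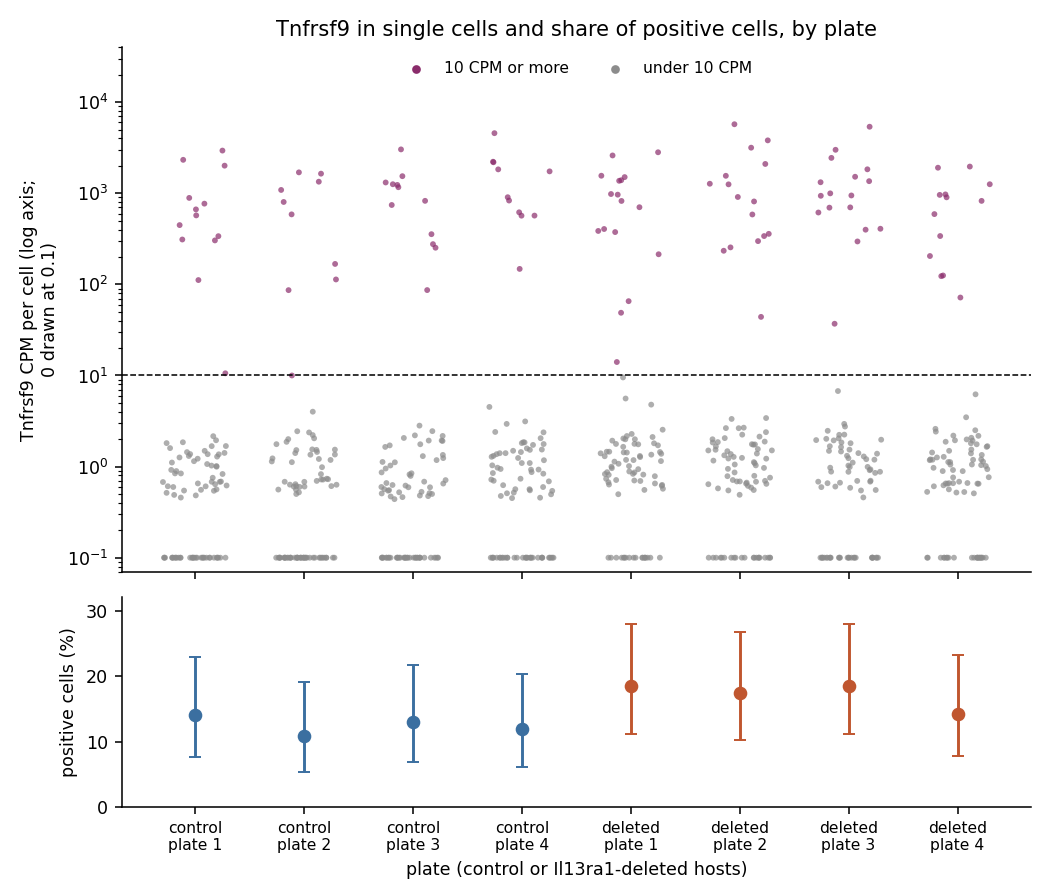
Tnfrsf9 CPM in each cell by plate (top, log axis, cells at 0 drawn at 0.1, dashed line at 10 CPM) and the percentage of positive cells per plate (bottom, points, with exact 95% binomial intervals as bars). Most positive cells lie far above the dashed line and few cells lie near it, and the percentages run from 10.9 on control plate 2 to 18.5 on deleted plates 1 and 3 with wide overlapping intervals.

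Positive cells were 12.5% of the control pool (exact Clopper-Pearson 95% interval 9.30 to 16.3%) and 17.2% of the deleted pool (13.5 to 21.4%). The control plates held 13, 10, 12 and 11 positive cells of 92. The deleted plates held 17, 16 and 17 of 92 and 13 of 91. Every deleted plate lay above every control plate, but only just, at 14.3% on deleted plate 4 against 14.1% on control plate 1. Both of these plates held 13 positive cells. They differ only in the number of cells, as well A12 of deleted plate 4 (9905 reads, 2 of them Tnfrsf9) was left out. The intervals of the pools overlap. The level within positive cells overlapped as well, with plate sums of 785 to 1511 CPM (control) and 769 to 1428 CPM (deleted).

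Positive cells were T cells by their markers. Cd4 was at 1024 CPM in positive and 899 CPM in negative cells of control hosts, and at 802 and 778 CPM in deleted hosts. Cd3e, part of the CD3 complex, was read in 90.8% of positive and 90.3% of negative cells, where a gene counts as read in a cell at 10 CPM or more and at 5% or more of its plate mean. The 10 measured CD4 T cell markers summed to 8033 to 11626 CPM on positive and 8297 to 9194 CPM on negative control plates. B cell markers summed to 54.7 and 80.0 CPM in positive cells of control and deleted hosts, against 28.2 and 28.8 CPM in negative cells, with up to 174 CPM on 1 positive plate. Ms4a1, which encodes CD20 of B cells, was under 0.1 CPM in every class, and 6 of the 9 markers were under 1 CPM in positive cells. Myeloid markers summed to 39.3 and 41.5 CPM and dendritic markers to 55.5 and 62.2 CPM in positive cells, and plasma cell markers to under 1 CPM. The part of these low levels in the differences below was not tested.

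Depth was alike, with median reads per cell of 1563790 in positive and 1601740 in negative cells of control hosts and 1613360 and 1488140 in deleted hosts. Positive cells of each pool had more genes with 5 or more reads, with medians of 1635 against 1559.5 in control and 1797 against 1501.5 in deleted hosts. With each cell thinned to 500000 reads, which left out 1 positive and 4 negative cells, the medians were 1498 against 1376.5 and 1549 against 1299. Control plate 3 was the exception, with 1547.5 against 1608.5 before and 1424 in both classes after thinning. The part of this in the shares of cells given below was not tested.

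A gene was called higher or lower when its reads, summed over the cells of a class and scaled to CPM, were at least 2-fold apart on average over the pools and apart in the same direction on all 8 plates. Folds are given as log2 of (positive CPM + 1) over (negative CPM + 1), which understates those of low genes. Of 8200 genes with 10 CPM or more over all cells, 22 were called higher in positive cells (0.268%, Tnfrsf9 included) and 246 lower (3%). The median log2 ratio of all 8200 was -0.11. Of the 246 lower genes, 112 were read in under 5% of cells, where a class of 109 cells can hold no reading cell at all. Among the 2042 genes read in 20% of cells or more, 5 were called higher (0.245%) and 40 lower (1.96%), and the median was -0.02. Scaling by TMM (trimmed mean of M-values, which matches the bulk of genes between classes) shifted all ratios up by 0.17 at the median. It gave 51 higher and 187 lower genes, a higher share of 21.4% in place of 8.21%, and 20 higher and 21 lower among the widely read genes.

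Lad1, which encodes the filament-anchoring protein ladinin known from epithelia, had the largest ratio after Tnfrsf9. It lies on chromosome 1 at 135818598 to 135833341 (GRCm38.p6). Positive cells had 115, 345, 193 and 197 CPM on the control plates and 296, 308, 626 and 95.6 CPM on the deleted plates. Negative cells had 12.3 CPM or less on every plate, so the classes did not overlap. The log2 ratio was 5.17, with 5.02 to 5.55 when any 1 plate was left out. Lad1 was read in 23 of 109 positive cells (21.1%, interval 13.9 to 30.0%) and 7 of 626 negative cells (1.12%, 0.451 to 2.29%), so most positive cells had no Lad1 reading. By pool it was read in 6 of 46 control and 17 of 63 deleted positive cells, with overlapping intervals.

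Itm2a, a membrane protein gene of thymocytes and stimulated T cells on chromosome X (107397195 to 107403360), was read more widely. Positive cells had 473, 1117, 696 and 522 CPM on control and 600.0, 1035, 1028 and 442 CPM on deleted plates. Negative cells ranged from 124 to 349 CPM, below every positive plate. The log2 ratio was 1.72, and 53.2% of positive (43.4 to 62.8%) against 19.5% of negative cells (16.5 to 22.8%) read the gene.

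Myb, a transcription factor of progenitors and stimulated lymphocytes, was at 427 against 193 CPM in control and 513 against 219 CPM in deleted hosts. Its log2 ratio was 1.18, and 63.3% of positive against 33.7% of negative cells read it. The lowest positive plate, at 251 CPM, lay just above the highest negative plate, at 239 CPM. Hmgb3, a chromatin protein of stem and progenitor cells, was at 77.1 against 14.4 CPM and 74.4 against 9.57 CPM (log2 ratio 2.59), read in 16.5% and 2.72% of cells.

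Nfatc1, a calcium-regulated factor induced through the antigen receptor, was the 1 called gene among 23 measured genes of the receptor signal list. Positive cells had 727, 883, 254 and 823 CPM on control and 227, 552, 487 and 388 CPM on deleted plates, and negative cells 139 to 319.9 CPM. The gene was higher on each plate, but on control plate 3 by 254 against 251 CPM, and levels overlapped across plates. The log2 ratio was 1.12, and 72.5% of positive against 50.6% of negative cells read it. Irf8 and Gadd45b, both induced by receptor stimulation, had ratios of 2.08 and 2.02 but were lower in positive cells on control plate 1, so neither was called. Over all genes, 0.268% were called higher and 3% lower. The median of the receptor signal list was 0.24, and it was -0.10 without the highest cell of each class.

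Early response genes and general activation markers were mostly not called, which holds for nearly all genes (0.268% called higher and 3% lower). Nr4a1, an orphan nuclear receptor that reports recent receptor signals, had a log2 ratio of 0.07 and was higher on 5 of 8 plates. Cd69, an early surface marker, had -0.13 and was higher on 4. In control hosts 23.9% of positive and 24.2% of negative cells read Cd69. In deleted hosts the shares were 47.6% and 34.9%, with overlapping intervals. The Nr4a1 mean joins pools that went opposite ways. Its sum was lower in positive than in negative cells of control hosts and higher in those of deleted hosts, with the values given below. Ier2, an immediate early gene, was lower on all 8 plates at -0.98, short of 2-fold. Of 14 measured activation surface markers none was called, where 0.268% of all genes were called higher. A count of 0 is thus near the share over all genes. The markers' median was 0.23, against -0.11 for all 8200 genes. Of the 14, 5 were higher on at least 6 plates, as were 10.7% of all genes. The name activated cells was not settled by these values, and the cells are called Tnfrsf9-positive here. Cd44, high on antigen-experienced cells, was at 36.5 against 106 CPM in control and 37.7 against 99.8 CPM in deleted hosts, lower on 7 of 8 plates. Cd82 and Cd2, surface proteins of stimulated T cells, were higher on all 8 plates, at ratios of 0.97 and 0.47. Il2ra, the high-affinity chain of the interleukin-2 receptor, was read in 3 positive (2.75%) and 5 negative cells (0.799%).

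**Figure D2:**
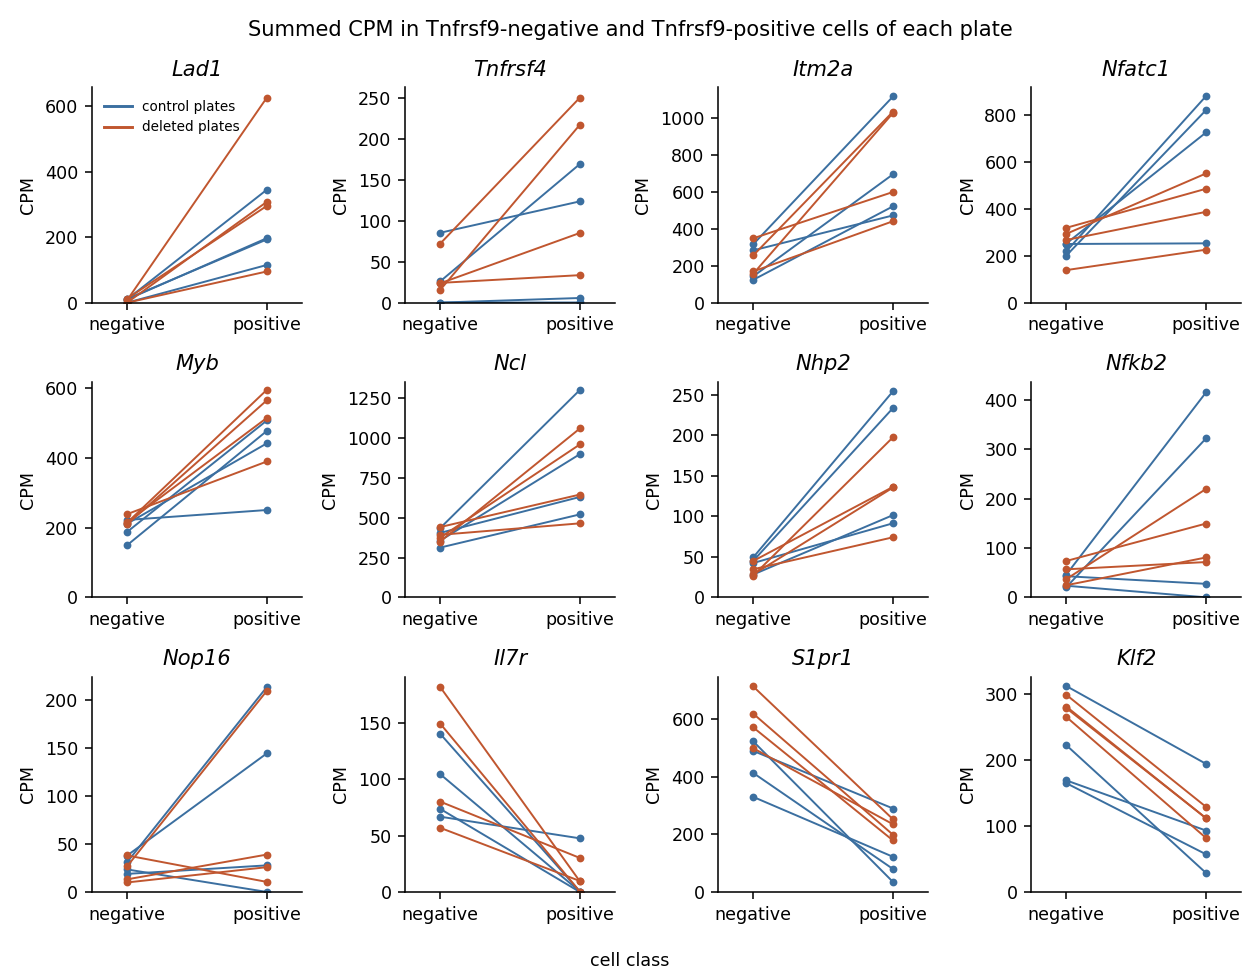
Summed CPM (vertical axes) of 12 genes in Tnfrsf9-negative and Tnfrsf9-positive cells, with 1 line per plate, control plates in blue and deleted plates in orange. Lines of Lad1, Tnfrsf4, Itm2a, Nfatc1, Myb, Ncl and Nhp2 go up and those of Il7r, S1pr1 and Klf2 go down on all 8 plates, while Nfkb2 and Nop16 each go down on 2 plates.

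The marker Nfkb2 was higher in both pools but not on every plate. Positive cells had 0.273, 415, 27.6 and 322 CPM on control and 149.6, 71.7, 219.8 and 81.0 CPM on deleted plates. Negative cells had 23.8, 46.3, 43.0 and 20.8 CPM and 73.9, 56.996, 37.2 and 24.8 CPM. Control plates 1 and 3 thus went the other way, and the gene was not called at a log2 ratio of 1.92. It was read in 19.3% of positive (12.3 to 27.9%) and 6.07% of negative cells (4.33 to 8.24%).

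Relb, whose product pairs with that of Nfkb2, was at 240.3 against 73.2 CPM in control and 148 against 64.6 CPM in deleted hosts (log2 ratio 1.44). It was higher on 7 of 8 plates, with deleted plate 4 at 0.600 against 57.2 CPM. None of the 19 measured NF-kappaB genes was called, where 0.268% of all genes were called higher and 3% lower. Their median was 0.28, or -0.03 without the highest cell of each class. The canonical subunits Rel, Nfkb1 and Rela had ratios of 0.55, 0.03 and 0.01, and the inhibitors Nfkbia and Nfkbie 0.36 and 0.30. Map3k14, the kinase that starts the alternative pathway, had -0.65, and Ikbkb, a kinase of the canonical pathway, -0.89. Nfkb2 and Relb thus had the largest ratios of the list.

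Of 13 measured adaptor and survival genes downstream of 4-1BB none was called, beside 0.268% (higher) and 3% (lower) of all genes. Their median was 0.37. The adaptors Traf1 and Traf2 had ratios of 0.37 and 0.53 and were higher on 6 of 8 plates each. Traf5, another adaptor, was at 50.3 against 113 CPM in control and 33.5 against 132 CPM in deleted hosts, lower on 7 of 8 plates. Bcl2l11, which encodes the death-promoting protein BIM, was at 175 against 77.5 CPM and 276 against 59.7 CPM, higher on 7 of 8 plates (log2 ratio 1.68). The survival genes Bcl2l1, Bcl2a1d, Bcl2a1b, Birc3 and Mcl1 had 1.55, 0.82, 0.64, 0.49 and 0.10, and Bcl2 had -0.85. Bcl2a1b and Bcl2a1d are near-identical copies whose reads may have been shared or lost.

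Among 19 measured TNF superfamily genes, 1 was called higher and 2 lower, beside 0.268% and 3% of all 8200 genes. Tnfrsf4 (OX40), a costimulatory receptor of stimulated and regulatory T cells, was the higher one. Positive cells had 124, 5.85, 0.363 and 169 CPM on control and 33.7, 217, 250.1 and 85.1 CPM on deleted plates. Negative cells had 85.3, 0.221, 0.284 and 26.0 CPM and 24.2, 15.6, 72.0 and 23.7 CPM. On control plates 2 and 3 both classes were under 6 CPM, so the direction there rests on few reads. The log2 ratio was 1.83, and 14.7% of positive against 4.63% of negative cells read the gene.

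Tnfrsf18 (GITR), often found with Tnfrsf4, was higher on all 8 plates at 0.83, short of 2-fold, and was read in 41.3% and 22.7% of cells. Cd27, a receptor kept by resting T cells, was lower on all 8 plates at -0.35. The 2 genes called lower encode ligands, Tnf and Tnfsf14, and their calls rest on few cells. Tnf was read in 2 of 109 positive (1.83%, 0.223 to 6.47%) and 16 of 626 negative cells (2.56%, 1.47 to 4.12%), shares whose intervals overlap. Tnfsf14 was read in 1 positive and 15 negative cells. Tnfsf9, the ligand of 4-1BB itself, lies under the filter of 10 CPM. It was read in 13 negative cells (2.08%) and 0 of 109 positive cells, so a share of up to 2.75% remains possible. Cd40lg, the ligand through which helper cells stimulate B cells, was at 48.2 against 98.8 CPM and 55.1 against 96.9 CPM, lower on 7 of 8 plates. The list's median was -0.09, and 0.08 under TMM.

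Ribosome assembly genes had the highest median of all gene lists. Of 37 measured genes of the Myc and ribosome biogenesis list, 5 were called higher and none lower, 35 had a ratio above 0, and 22 were higher on at least 6 plates. Over all 8200 genes, 0.268% were called higher, 43.3% had a ratio above 0 and 10.7% were higher on at least 6 plates. The list's median log2 ratio was 0.95, with 0.82 to 1.06 when any 1 plate was left out, 1.12 under TMM and 0.68 without the highest cell of each class. The list was chosen with results of these cells known, so its direction is not independent evidence.

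Nhp2, a protein of the particles that modify ribosomal RNA, had 102, 234, 91.6 and 255 CPM on positive control and 198, 74.3, 136 and 137 CPM on positive deleted plates. Negative plates lay between 26.98 and 49.5 CPM, below every positive plate. Its log2 ratio was 1.96, and 37.6% of positive against 11.7% of negative cells read it. Ncl, the abundant nucleolar protein nucleolin, had 520.0, 897, 629 and 1299 CPM and 464, 644, 1058 and 958 CPM on positive plates. Negative plates reached 441 CPM, again without overlap, and the ratio was 1.07, or 0.94 without deleted plate 3. Ddx21, a nucleolar RNA helicase, and the assembly factors Noc2l and Wdr43 had 1.33, 1.26 and 1.05. Ddx21 was at 0.95 when only cells without a Tnfrsf9 read were taken as negative, and Wdr43 at 0.92 without the highest cell, each under 2-fold.

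The marker Nop16 was higher on 6 of 8 plates. Positive cells had 0.227, 144, 27.9 and 213 CPM on control and 10.7, 39.1, 209 and 26.0 CPM on deleted plates. Negative cells had 23.6, 38.0, 19.0 and 31.2 CPM and 38.2, 13.3, 26.8 and 10.1 CPM, so plate 1 of each pool went the other way. The log2 ratio was 1.72, or 1.01 without deleted plate 3, and 16.5% of positive against 5.11% of negative cells read the gene. The assembly factors Mrto4, Nip7 and Nolc1 had 2.45, 1.91 and 1.76 on 7 of 8 plates each. Nop14 and Myc had the 2 ratios below 0, and that of Nop14, -2.54, was the lowest of the list but was not called. Myc, which drives transcription of this gene group, was at 13.6 against 108 CPM in control and 178 against 66.9 CPM in deleted hosts, in opposite directions.

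Pa2g4, Vars and Serp1 were called higher outside that list. Pa2g4, a nucleolar growth regulator, was at 240.5 against 48.5 CPM in control and 256 against 80.6 CPM in deleted hosts (log2 ratio 1.97). Vars, the valine transfer RNA synthetase, was at 224 against 88.9 CPM and 265 against 51.7 CPM (1.83). Serp1, a stress-associated protein of the endoplasmic reticulum, was at 729 against 337 CPM and 889 against 413 CPM (1.11, or 0.95 without deleted plate 3). For Serp1 the classes did not overlap, with 535 CPM on the lowest positive and 513 CPM on the highest negative plate.

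The remaining called genes were read in few cells or lay outside the lists. Ctdnep1, a phosphatase of the nuclear envelope, was at 35.2 against 12.4 CPM in control and 53.3 against 5.62 CPM in deleted hosts (log2 ratio 2.24). Ppp2r5d, a regulatory subunit of protein phosphatase 2A, was at 213 against 78.6 CPM and 188 against 66.3 CPM (1.46). Ccdc86, a nucleolar protein, had 1.63. Mettl16, Mapk8ip3 and the predicted gene Gm3739 complete the 22.

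Chaperone genes had ratios above 0 in 19 of 20 measured members, with a median of 0.57 and none called. Over all 8200 genes, 43.3% had a ratio above 0, and 0.268% were called higher and 3% lower. Hspa8, a cytosolic chaperone, was at 3689.6 against 2358 CPM and 4263 against 2387 CPM, higher on all 8 plates. Translation factors had 14 of 16 ratios above 0 (median 0.54) and amino acid, polyamine and one-carbon genes 17 of 20 (median 0.74), with none called in either list. Phgdh, the entry enzyme of serine synthesis, was at 319.5 against 117 CPM and 302 against 81.0 CPM, higher on 7 of 8 plates. Of 15 measured glycolysis genes 1 was called higher, Tpi1 at 1.38, and the median was 0.20.

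Of 24 measured proliferation genes none was called, where 0.268% of all genes were called higher and 3% lower. A count of 0 is thus near the share over all genes. The list's median of 0.37 was -0.19 without control plate 4. Mki67, a protein of dividing cells, was read in 4 positive cells (3.67%) and 8 negative cells (1.28%).

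**Figure D3:**
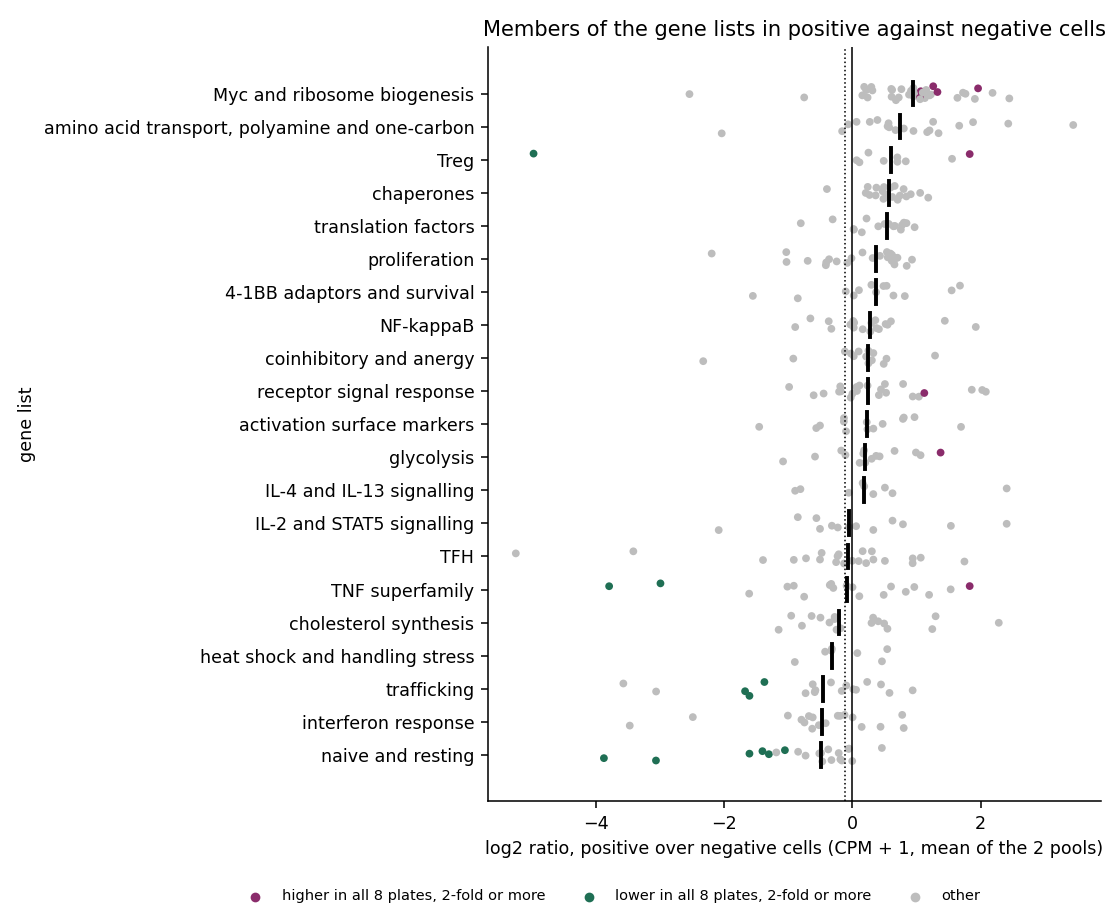
Log2 ratio of positive over negative cells (horizontal axis, CPM + 1) for each measured gene of 21 lists, 1 point per gene, with the list median as a black bar and the median of all 8200 genes (-0.11) as a dotted line. The Myc and ribosome biogenesis list has the highest median (0.95) and the naive and resting list the lowest (-0.49), and coloured points are genes called higher or lower.

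Genes of resting and circulating T cells were often lower in positive cells. Of 21 measured naive and resting genes, 6 were called lower (Il7r, S1pr1, Klf2, Txnip, Tsc22d3 and Igfbp4) and none higher, 20 had a ratio below 0, and 16 were lower on at least 6 plates. Over all 8200 genes, 3% were called lower and 34.0% were lower on at least 6 plates. The list's median was -0.49, within -0.75 and -0.32 over all alternatives.

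S1pr1, the receptor that guides T cells out of lymphoid tissue, had 122, 35.1, 289.8 and 80.1 CPM on positive control and 199, 179, 235 and 252 CPM on positive deleted plates. Negative plates ran from 330.0 to 712 CPM, above every positive plate. The log2 ratio was -1.60, and 55.0% of positive (45.2 to 64.6%) against 85.9% of negative cells (83.0 to 88.6%) read the gene. Klf2, the factor that maintains S1pr1 transcription, had 93.4, 57.4, 194 and 29.0 CPM and 129, 112, 82.1 and 112 CPM on positive plates and 165 to 313 CPM on negative plates. Only positive cells of control plate 3 reached into the negative range, and the ratio was -1.30.

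Il7r, the interleukin-7 receptor of resting T cells, was at 11.98 against 95.9 CPM (control) and 11.95 against 119 CPM (deleted). The log2 ratio, -3.06, was -4.75 without control plate 4, whose positive cells held 47.6 CPM. It was read in 5.50% of positive and 13.6% of negative cells. Txnip, an inhibitor of glucose uptake, was at 91.5 against 311 CPM and 164 against 340.4 CPM, with -1.40, or -1.99 without control plate 1. Tsc22d3, a glucocorticoid-induced gene, had -1.05, or -0.85 without control plate 3. Igfbp4 was read in 1 positive and 38 negative cells, with -3.87, or -5.40 without deleted plate 1. Ccr7, a receptor for entry into lymph nodes, had -0.17 and was not called.

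Selplg, the ligand of selectins, and S1pr4, a relative of S1pr1, were the other called genes among 18 measured trafficking genes. Over all 8200 genes, 3% were called lower. Selplg had 486, 103, 452 and 420.3 CPM and 334, 353, 295 and 139 CPM on positive plates against 736 to 1013 CPM on negative plates, without overlap (log2 ratio -1.37). S1pr4 had 52.9 to 123 CPM on positive control and 25.2 to 158 CPM on positive deleted plates, all below the 186 to 336 CPM of negative plates (-1.67). Cxcr5, the receptor for entry into B cell follicles, had 0.94 and was higher on 6 of 8 plates.

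The largest negative ratios belonged to sparsely read genes. Mepce, which caps the 7SK RNA, was at 0.125 against 46.4 CPM in control and 0.635 against 50.5 CPM in deleted hosts (log2 ratio -5.19) and was read in 2 positive and 50 negative cells. Acss1, a mitochondrial acetyl-CoA synthetase, was at 0.307 against 96.8 CPM and 14.9 against 104 CPM (-4.47, or -6.18 without deleted plate 2). The other 10 of the 12 largest were Zfp959, Nrp1, Slc12a4, Klhl17, Ankrd13d, Antxr2, Ttc38, Pdk2, Cog7 and Klc4. All 12 were read in 0 to 1.83% of positive and 2.72 to 9.58% of negative cells. Single plates moved Klhl17 to -4.27 (without control plate 3), Slc12a4 to -4.15 (without deleted plate 4) and Ttc38 to -5.32 (without deleted plate 1), and Klc4 was at -2.52 with only cells of 0 Tnfrsf9 reads as negative.

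TFH genes had a median near that of all genes. None of 22 measured genes was called, where 0.268% of all genes were called higher and 3% lower. The median was -0.06, or 0.11 under TMM. Bcl6, the transcription factor of TFH cells, was at 48.3 against 28.5 CPM in control and 48.7 against 18.0 CPM in deleted hosts, higher on 7 of 8 plates (log2 ratio 1.07). It was read in 44.0% of positive and 22.8% of negative cells. Pdcd1, an inhibitory receptor of TFH cells, had 0.10, and Cxcr5 and Pdcd1 were read together in 4.59% of positive and 2.396% of negative cells, with overlapping intervals.

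Of 10 measured Treg genes, 9 had a ratio above 0, and the median was 0.60, with 0.32 to 0.995 when any 1 plate was left out. It was 0.72 in control and 0.05 in deleted hosts, and 4 genes were higher on at least 6 plates. Foxp3, which defines Treg cells, was read in 5 positive (4.59%, 1.51 to 10.4%) and 9 negative cells (1.44%, 0.659 to 2.71%), so most positive cells had no Foxp3 reading. Ikzf2 (Helios), found in Treg and in stimulated cells, was at 273 against 50.3 CPM in control and 167 against 103 CPM in deleted hosts. It was higher on 7 of 8 plates, with 26.0 against 151 CPM on deleted plate 2, and was read in 40.4% and 15.2% of cells. Nrp1, a surface protein of thymic Treg cells, was called lower and was read in 1 positive and 28 negative cells. Tnfrsf4 was the list's 1 gene called higher, where 0.268% of all genes were called higher and 3% lower.

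**Figure D4:**
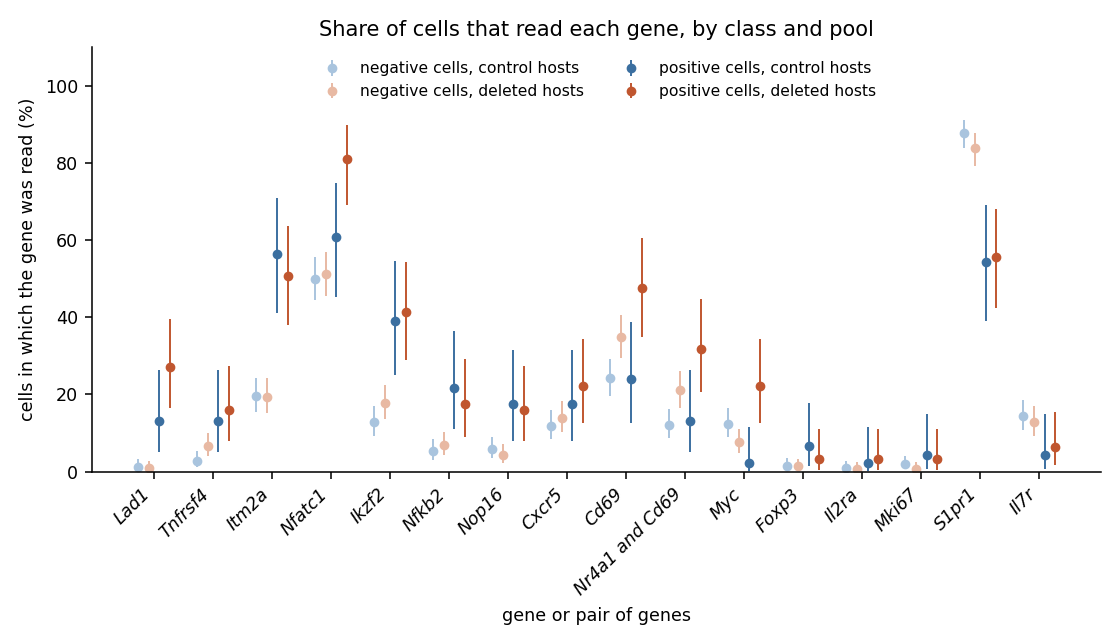
Percentage of cells (vertical axis) in which each gene or pair of genes was read, for positive (dark) and negative (pale) cells of control (blue) and deleted (orange) hosts, with exact 95% binomial intervals as bars. Lad1, Itm2a and Ikzf2 are read in a larger percentage of positive cells in both pools and S1pr1 in a smaller one, while Foxp3, Il2ra and Mki67 stay under 7% everywhere.

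Sums of some genes differed between positive cells with less and with more Tnfrsf9. When each pool's positive cells were divided at their median Tnfrsf9 level, Lad1 was at 49.8 CPM in the lower and 356 CPM in the upper control cells and at 88.2 and 584 CPM in deleted hosts. Itm2a was at 329.2 and 1022 CPM and at 570.3 and 1003 CPM. Myb was at 263 and 592 CPM and at 280.2 and 729.6 CPM. The marker Nfkb2 was at 130 and 221 CPM and at 66.2 and 196 CPM, and the marker Nop16 at 30.2 and 150 CPM and at 48.0 and 104 CPM. Lad1, Itm2a, Myb, Nfkb2 and Nop16 thus had the larger sum in the upper cells of both pools. The division uses the Tnfrsf9 values that chose the cells, so it is a description. Tnfrsf4 went the other way, at 87.5 and 74.2 CPM and at 242 and 69.8 CPM, as did Il7r. Ncl, Nfatc1, S1pr1, Klf2 and Txnip went opposite ways in the pools. Over the 109 cells, which share depth and PCR, Spearman's rho with Tnfrsf9 was 0.26 for Myb and 0.21 for Itm2a. It was 0.22 for Lad1 (0.06 in control and 0.30 in deleted hosts), 0.16 for Nfkb2 and 0.04 for Nop16. All are too weak in sparse counts to be a finding. Lad1 and Tnfrsf4 were read together in 4 positive cells and in 0 of 626 negative cells, where 3 cells, or a share of 0.479%, is the limit that a count of 0 allows (the exact 95% interval reaches 0.588%). Singly they were read in 23 and 16 of 109 positive and in 7 and 29 of 626 negative cells. Whether the pair goes beyond these single shares was not tested.

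Between the pools, positive cells of deleted hosts had 163 genes called higher (1.99%) and 89 lower (1.09%) than positive cells of control hosts. Here a call needs a 2-fold difference and every plate of one pool above every plate of the other. Among the 2042 widely read genes, 20 were higher (0.979%) and 26 lower (1.27%). In negative cells, 64 and 82 of the 8200 genes were called. In both classes 3 genes were called in the same direction, of which Dusp5 and Junb were higher. How many unrelated calls would be shared was not tested, so this count does not show that the other differences are particular to positive cells. The smaller number of positive cells makes plate sums more variable, and the part of this was not tested.

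Nr4a1 had 280.4, 1111, 984 and 21.6 CPM on positive control and 1745, 2841, 1842 and 2405 CPM on positive deleted plates. All deleted plates were above all control plates, and the sums were 559 and 2203 CPM (log2 ratio 1.98, 1.58 to 2.44 with 1 plate left out). In negative cells it was at 982 and 1144 CPM with overlapping plates. Nr4a1 and Cd69 were read together in 6 of 46 control (13.04%) and 20 of 63 deleted positive cells (31.7%), against 12.1% and 21.1% of negative cells.

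Dusp5, a phosphatase induced by ERK signalling, had 33.7, 15.3, 66.3 and 52.4 CPM on positive control and 280.0, 682, 161 and 118 CPM on positive deleted plates. The ratio was 2.87, or 2.12 without deleted plate 2, and it was 2.42 in negative cells, so the pools differed in both classes. Junb, an AP-1 subunit, was at 1212 and 2489.6 CPM in positive and 1296 and 2983 CPM in negative cells. Its ratio in positive cells was 1.04, or 0.89 without control plate 1 and 0.98 under TMM. Ier2 was at 129 and 318 CPM in positive cells, with 1.30, or 0.96 without control plate 3.

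Tnfsf4, the ligand of OX40, had 43.0, 0.0643, 0.121 and 0.227 CPM on positive control and 109, 152, 85.4 and 163 CPM on positive deleted plates. Its ratio was 3.15, or 6.80 without control plate 1, while negative cells had 20.5 and 21.1 CPM. Myc was read in 1 of 46 control (2.17%) and 14 of 63 deleted positive cells (22.2%), against 12.4% and 7.57% of negative cells. Its plates overlapped between the pools, so it was not called. Tnfaip3 (A20), an inhibitor of NF-kappaB signalling, was at 281 and 399 CPM in positive cells with overlapping plates and at 116 and 538 CPM in negative cells, where it was called higher.

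Among genes lower in deleted hosts, Il27ra, a cytokine receptor of T cells, had 518 to 909.5 CPM on positive control and 184 to 388 CPM on positive deleted plates (log2 ratio -1.23). Negative cells had 429 and 471 CPM, with overlapping plates. Maf, a transcription factor of TFH cells, was at 28.4 and 2.59 CPM in positive cells (-3.03) and was read in 6 of them. The 8 largest ratios in each direction, led by Rrp8 and Rnf34 (higher) and Fbxo25 and Mcfd2 (lower), belonged to genes read in 4.59 to 11.01% of positive cells, so each rests on few cells. The receptor signal list had a median of 0.46 in positive and 0.22 in negative cells, and the ribosome list 0.49 and -0.03.

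**Figure D5:**
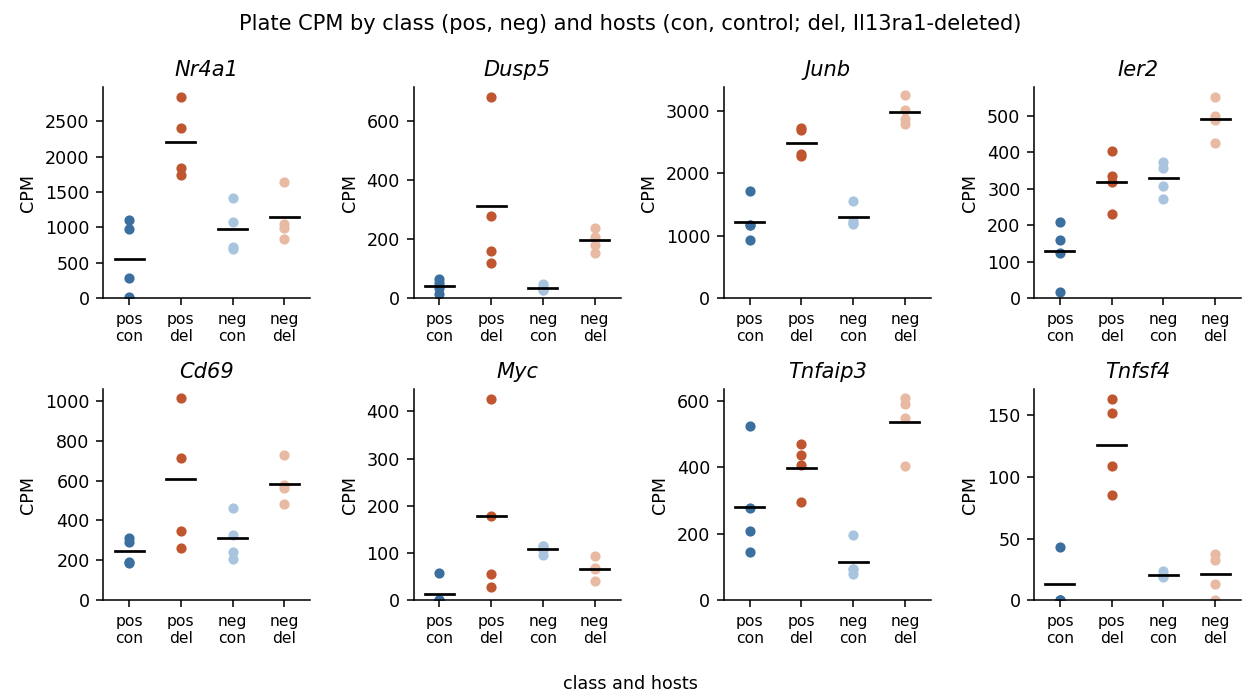
Summed CPM per plate (points, vertical axes) and per pool (black lines) of 8 genes in positive (pos) and negative (neg) cells of control (con) and deleted (del) hosts. In positive cells Nr4a1, Dusp5, Junb, Ier2 and Tnfsf4 have every deleted plate above every control plate, while Cd69, Myc and Tnfaip3 overlap.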

How the data were processed

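Single CD4 T cells in plate wells were measured by SmartSeq2, with cDNA primed by oligo(dT), 25 PCR cycles and Tn5 tagmentation, per the labels' protocols. Values are raw whole-number counts for every gene in each well, as deposited. featureCounts 2.0.1 and mm10 come from the submitters' processing notes, and aligner, annotation and strand setting were not given in the sources used here, so reads of overlapping or antisense genes cannot be told apart. No molecular identifiers are named, so intervals and limits (3 counts over the total for a share of 0) cover counting error only.

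Columns of 736 cell wells were read, and the 32 control wells (23 bone marrow, 9 without a cell) entered no comparison. Well A12 of deleted plate 4, with 9905 reads, was left out for having under 10000. No doublet caller was run on sorted wells. Counts were summed per plate, pool and class and scaled to CPM, with a pseudocount of 1, in Python 3.11.15 with pandas 2.3.3 and scipy 1.17.1. TMM factors came from edgeR 4.0.16, used for that alternative only. The code was tested on simulated data.

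The cells, their markers and the gene lists were chosen with earlier results of these data known. Named genes were the 12 largest ratios in each direction among called genes at 20 CPM or more in the higher class, up to 4 genes per list, all measured NF-kappaB, adaptor and TNF superfamily genes, 34 set genes, and the 8 largest in each direction between pools at 50 CPM or more in the higher pool. Genes named beside these (such as Myb, Ncl, Serp1, Ddx21, Noc2l, Wdr43, Tsc22d3, Nip7, Nolc1, Hspa8, Cd2, Cd4, Junb, Ier2, Il27ra) were chosen after their values were seen. Of 504 list genes, 7 had no row. Alternatives were other thresholds, scalings, filters and leaving out the highest cell or each plate. The threshold of 20% of cells was added after seeing the data.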

Additional observations from a re-analysis of the deposited data

Results flagged for a closer look

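For 7 genes the positive cells lay above the negative cells on every plate of one pool and below them on every plate of the other, with log2 ratios at least 1.5 apart. These were looked for among the genes named by rule and those at 50 CPM or more read in 20% of cells. Of the 1842 genes of the second kind, 14 went opposite ways on all plates, whatever the size. The values are the log2 ratio of positive over negative cells in deleted hosts minus that in control hosts, and the difference was not tested. It was 2.12 for Ahsa1, a cochaperone, whose CPM in positive and negative cells were 58.4 and 162 in control and 216 and 136 in deleted hosts. It was 6.53 for Elac2 and 6.24 for Mettl22, which were near 0 CPM in positive control cells. It was -4.13 for Nmb, -2.14 for Rnf166 and -1.61 for Srp9. It was -1.69 for Tnfaip3, at 281 and 116 CPM in control and 399 and 538 CPM in deleted hosts.

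Outside the sorted cells, the bone marrow well H11 of control plate 1 held 60 Tnfrsf9 reads, at 21.9 CPM. The second highest bone marrow well of 500000 reads or more had 4.41 CPM.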

How the results depend on the processing

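Positive and negative cells were compared within each plate for direction and within each pool for the ratio. Between the pools no pairing was possible, as each group was 1 pooled sample. No result comes from a test. The 22 genes called higher in positive cells became 51 under TMM, 42 with only cells of 0 Tnfrsf9 reads as negative, 5 among genes read in 20% of cells (a choice made after seeing the data), and 29 to 55 with 1 plate left out, with 55 without control plate 3, 39 without control plate 1 and 36 without control plate 4. The 246 lower became 97 with negative cells of 0 reads, 76 at 50 CPM or more, 421 with no filter, 40 among genes read in 20% of cells, and 323 to 369 with 1 plate left out. Averaging the CPM of cells in place of summing reads gave 23 genes higher in positive cells, 13 of them among the 22. It gave 231 lower genes, 194 of them among the 246. Of the 5 higher genes read in 20% of cells or more, 2 stayed called under that averaging. Between pools, the 163 higher became 53 at 50 CPM or more, 20 among genes read in 20% of cells, and 250 to 321 with 1 plate left out. The 89 lower became 52, 26 and 138 to 189. Leaving out a plate asks for the same direction on fewer plates, which raises counts by construction. The share of positive cells ran from 11.4 to 13.04% in control and from 15.5 to 18.1% in deleted hosts. Among the 184 genes named by rule, no called gene changed direction. Leaving out 1 plate moved the ratio of 49 of them by over 1.5-fold, and for called genes whose ratio is printed the moved value stands beside it above.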

Other observations

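Interferon response genes, which the text above does not describe, had a median log2 ratio of -0.47 in positive over negative cells. Of 18 measured genes, 5 were above 0, 8 were lower on at least 6 plates and none was called. Over all 8200 genes, 34.0% were lower on at least 6 plates, and 0.268% were called higher and 3% lower. Irf1, a transcription factor induced by interferon, was at 362 against 467 CPM in control and 297 against 542 CPM in deleted hosts, lower on 7 of 8 plates. Of 15 measured coinhibitory and anergy genes none was called (median 0.25, and -0.12 without the highest cell of each class). Lag3, an inhibitory receptor, was at 274 against 96.9 CPM and 256 against 119.9 CPM, and Dgka, which limits receptor signalling, was lower on all 8 plates at 1101 against 1580.1 CPM and 724 against 1807 CPM. Stat5a, which carries interleukin-2 signals, was at 184 against 67.1 CPM and 254 against 81.2 CPM, higher on 7 of 8 plates, and was read in 38.5% of positive and 13.1% of negative cells.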
